A study of Rattus norvegicus with 9 samples.

Results

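Stem and progenitor regulators of the blood are described here through 9 genes: the transcription factors Gata1, Gfi1b, Klf1, Gata2, Myb, Meis1 and Hlf, the receptor Kit and the surface protein Cd34. The genes were listed by symbol, with earlier results of these data known, and all 9 were found among the 41801 genes listed in the count matrices. Cells of the proximal tibial osteotomy site of male Sprague-Dawley rats aged 6 to 8 weeks were profiled with 10x Genomics 3' single-cell RNA sequencing. All animals carried a circular osteotomy and a full-thickness skin wound on the back of the foot. The TO libraries (osteotomy without shock waves) were TO 2d 0h, TO 2d 4h, TO 4d 4h and TO 4d 24h. The TOE libraries (osteotomy followed by radial shock waves aimed at the bone cut, with sessions on days 2 and 4 of which the day 2 libraries had only the first) were TOE 2d 4h, TOE 2d 24h, TOE 4d 4h and TOE 4d 24h. A name gives the day after injury and the hours after that day's session in the TOE animals, and TO 2d 0h was taken before any shock wave. TOE and TO could be set side by side in 3 pairs, namely 2d 4h, then 4d 4h and lastly 4d 24h, since TO 2d 24h was not analysed here. Each condition was 1 library, and the sources used here do not tie animals to libraries, so a difference within a pair could not be tested, and TOE was not tested against TO over the 3 pairs.

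Blood stem cells divide rarely and give rise to committed progenitors of the erythroid, megakaryocytic, mast cell, granulocytic and lymphoid lines, and these steps are set by transcription factors that act in combination. Meis1, a partner of Hox proteins, and Hlf, a leucine zipper factor, are known from stem cells, and Gata2 maintains stem cells and early progenitors. During erythroid commitment Gata1 takes the place of Gata2 at many shared sites, with Gfi1b acting as a repressor beside it and Klf1 switching on globin and membrane genes. Kit is the receptor for stem cell factor, Myb keeps immature cells of several lines dividing, and Cd34 is a sialomucin of progenitors and of blood vessels.

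After filtering, 110488 cells were kept, from 11924 cells in TOE 4d 24h to 16227 cells in TOE 2d 4h, and total counts ranged from 95954800 to 144146202 UMIs (unique molecular identifiers, each standing for 1 captured transcript) per library. The 33 clusters were built without the 9 genes and gave 12 named classes. The unit of level was CPM, a gene's UMIs scaled to a total of 1000000 UMIs over the same cells, with the SD over the libraries that held at least 20 cells of a class. Intervals are exact, at 95%, and cover counting error only. Levels were not compared between genes, because 3' counts do not allow it. The neutrophil-like class, 15449 cells with a median of 5706 UMIs, served as background, since mature neutrophils should lack most of these genes. It was not limited to mature neutrophils. A cluster of 5396 of its cells had defensin genes and Camp among its leading genes and 5 of 8 granulocyte-monocyte progenitor markers raised. TO 2d 4h stood apart by an unnamed cluster, to which it gave 1992 of 2085 cells. In this cluster 14 of 14 erythroid and 10 of 10 B-cell markers were raised. Every ratio of the 9 genes over all cells was also computed without it. The shares of all genes and the lists of related genes were not. The dendritic-cell-like class (2023 cells) was mixed. On clustering it again with the erythroid, mast cell and granulocyte-monocyte progenitor clusters, which gave 18 sub-clusters of 8504 cells, 588 of its cells fell into a stem and progenitor-like sub-cluster, 580 into a dendritic-cell-like sub-cluster, 491 into an unnamed sub-cluster with Siglech among its leading genes and 166 into a megakaryocyte-like sub-cluster.

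The stem and progenitor-like sub-cluster (sub-cluster 8) held 626 cells and was led by Mecom and Hoxa9, a regulator of stem cell self-renewal and a homeobox factor of early progenitors. Of the 12 stem and progenitor markers, 9 were raised, meaning at least 4-fold above the lower quartile of all sub-clusters, as were 9 of them in the megakaryocyte-like sub-cluster. In sub-cluster 8 Adgrl4 had 0 UMIs, Mycn 20 UMIs and Procr 38 UMIs, so the label rests on part of the list. Also raised in sub-cluster 8 were 5 of 8 granulocyte-monocyte progenitor markers. The megakaryocyte-like sub-cluster (sub-cluster 3, 189 cells) had the platelet genes Pf4 and Gp9 among its leading genes. An unnamed sub-cluster of 679 cells (sub-cluster 4), with Hpn, Bex4 and Car1 among its leading genes, had 13 of 14 erythroid markers raised, none of them among its 50 leading genes, and had the deepest cells, with a median of 45037 UMIs. Mast cell and basophil-like cells formed sub-cluster 1 (616 cells, with Prss34 and Mcpt8) and sub-cluster 16 (89 cells, with Tpsab1 and Cpa3).

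**Figure D1:**
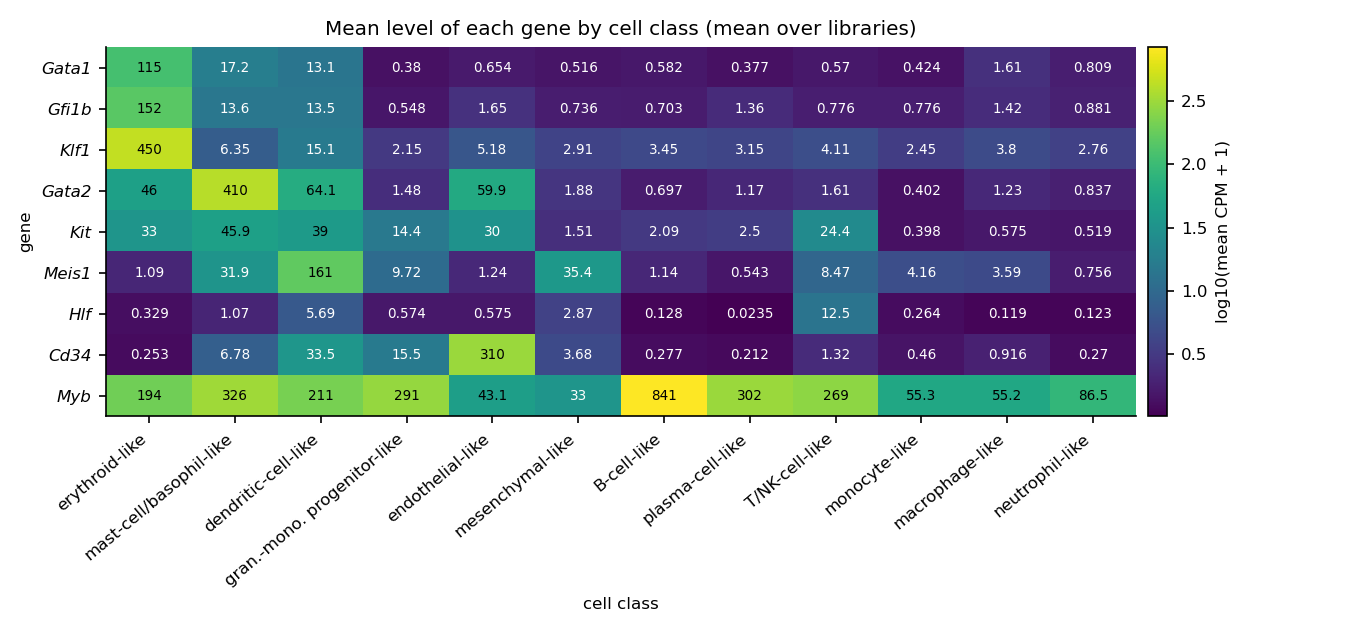
Mean CPM of each gene (rows) in the 12 named classes (columns), averaged over libraries with at least 20 cells of the class, with the mean printed in each cell and the colour giving log10(mean CPM + 1). Gata1, Gfi1b and Klf1 were highest in the erythroid-like class, Gata2 and Kit in the mast-cell/basophil-like class, Cd34 in the endothelial-like class and Myb in the B-cell-like class.

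Gata1, Gfi1b and Klf1 shared the erythroid-like class, where each lay above every other class in all 8 libraries. Gata1 stood there at 115 ± 15.2 CPM (SD, n = 8 libraries). By library, the Gata1 level was 103 CPM in TO 2d 0h, 128 in TO 2d 4h, 118 in TO 4d 4h, 109.5 in TO 4d 24h, 120.1 in TOE 2d 4h, 91.1 in TOE 2d 24h, 141 in TOE 4d 4h and 111 in TOE 4d 24h. TO and TOE libraries were interleaved. The next class, mast-cell/basophil-like, had a mean of 17.2 CPM of Gata1, and its ranges overlapped with those of the dendritic-cell-like class (13.1 CPM). The neutrophil-like mean was 0.809 CPM. A Gata1 UMI was found in 49.3% of erythroid-like cells (median 6797.5 UMIs per cell) and in 0.511% of neutrophil-like cells, and after each cell was thinned to 1500 UMIs in 13.5% and 0.101%.

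Gfi1b, a zinc finger repressor needed in erythroid and megakaryocytic cells, had an erythroid-like level of 152 ± 16.4 CPM (SD, n = 8), from 127 CPM in TO 4d 4h to 168 CPM in TO 2d 4h with a median of 158. The neutrophil-like mean of Gfi1b was 0.881 CPM. A Gfi1b UMI was found in 44.8% of erythroid-like cells (15.9% thinned) and in 0.589% of neutrophil-like cells (0.168% thinned). Klf1, the activator of adult beta-globin, stood at 449.7 ± 66.6 CPM (SD, n = 8), from 356 CPM in TOE 4d 24h to 576 CPM in TOE 4d 4h with a median of 442. Klf1 UMIs were seen in 79.3% of erythroid-like cells (46.1% thinned) against 1.87% of neutrophil-like cells (0.430% thinned). The erythroid-like class was 3.74% of all cells and held 83.3% of all Gata1 UMIs, 85.3% of Gfi1b UMIs and 87.2% of Klf1 UMIs.

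Among the sub-clusters all 3 factors had their highest pooled level in sub-cluster 5, at 174 CPM of Gata1, 229 CPM of Gfi1b and 775 CPM of Klf1. In sub-cluster 4 the levels varied little between libraries: Gata1 118 ± 11.4 CPM, Gfi1b 171 ± 10.7 CPM and Klf1 386 ± 43.0 CPM (SD, n = 8). Sub-cluster 5, whose leading genes included Hemgn and Mir451a, had means of 173 ± 13.2 CPM of Gata1, 224 ± 46.3 CPM of Gfi1b and 767 ± 88.2 CPM of Klf1 in the 4 libraries with enough cells. Both Gata1 and Klf1 lay above sub-cluster 4 without overlap there, while the Gfi1b ranges overlapped. Sub-cluster 7, led by histone genes, was close behind in pooled level, with 142 CPM of Gata1, 218 CPM of Gfi1b and 617 CPM of Klf1. By the mean of its 4 libraries it stood above sub-cluster 5 for Gata1 (202 ± 126 CPM) and Gfi1b (240.1 ± 62.7 CPM), where TO 2d 4h, with 23 cells, was the highest, so the order of sub-clusters 5 and 7 depended on how libraries were weighted. In sub-cluster 10, with Tmcc2, Alox15 and Hba-a3 among its leading genes, the pooled levels were 91.7 CPM of Gata1 and 41.5 CPM of Gfi1b while Klf1 was at 465 CPM. Sub-cluster 12, with Hbb among its leading genes, had 47.7 CPM of Gata1, 26.0 CPM of Gfi1b and 329 CPM of Klf1. The haemoglobin genes Hba-a1 and Hba-a2 were highest in sub-cluster 10 and Hbb in sub-cluster 12. Sub-clusters 0 and 6 had pooled levels of 74.7 and 89.8 CPM of Gata1, 59.6 and 130 CPM of Gfi1b and 300.0 and 357 CPM of Klf1. Gfi1b thus kept a smaller part of its highest level in sub-clusters 10 and 12 than Klf1 did.

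The megakaryocyte-like sub-cluster carried Gata1 and Gfi1b as well, at pooled levels of 69.6 and 66.2 CPM, with Klf1 at 49.4 CPM. In the stem and progenitor-like sub-cluster, Gata1 lay between 0.499 CPM (1 UMI, TOE 4d 4h) and 4.14 CPM (14 UMIs, TO 4d 24h), and Gfi1b between 0.688 and 5.88 CPM. The neutrophil-like range of Gata1 was 0.0771 to 1.62 CPM, which overlapped with that of the stem and progenitor-like cells.

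**Figure D2:**
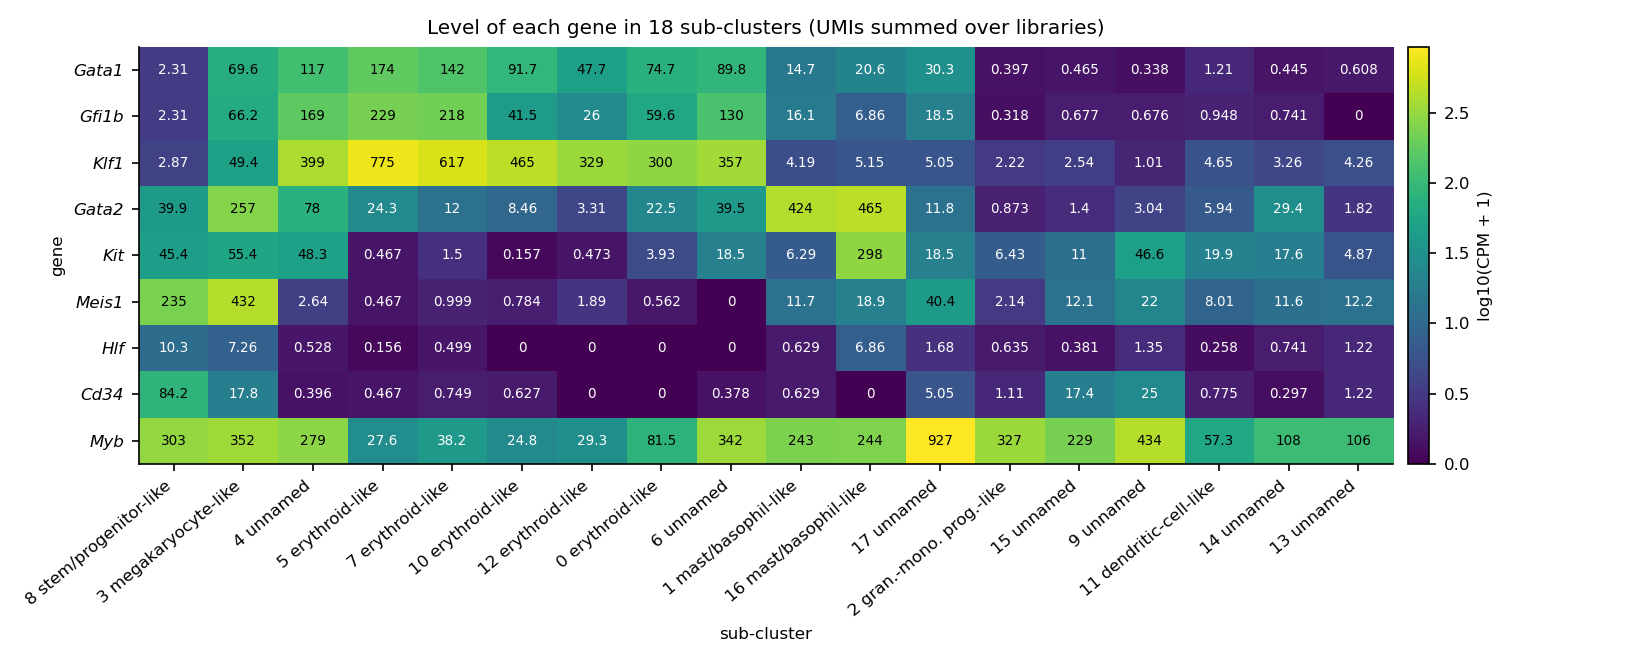
CPM of each gene (rows) in the 18 sub-clusters (columns), from UMIs summed over the 8 libraries, with the value printed in each cell and the colour giving log10(CPM + 1). Gata1, Gfi1b and Klf1 are highest in sub-cluster 5 and at 2.31 to 2.87 CPM in sub-cluster 8. In sub-cluster 8 Meis1 stood at 235 CPM, Cd34 at 84.2 CPM and Hlf at 10.3 CPM.

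Cells with UMIs of both Gata1 and Gfi1b numbered 1499 of 110488. Of these, 1345 (89.7%) were erythroid-like, 115 (7.67%) were in the mixed dendritic-cell-like class and 14 in the mast-cell/basophil-like class. By sub-cluster, 566 (37.8%) were in sub-cluster 4, 374 in sub-cluster 5, 199 in sub-cluster 7, 85 (5.67%) in the megakaryocyte-like sub-cluster and 8 (0.534%) in the stem and progenitor-like sub-cluster. In sub-cluster 4, 95.8% of cells with Gata1 also had Gfi1b. Over all cells 52.0% of cells with a Gata1 UMI had a Gfi1b UMI and 72.5% had a Klf1 UMI. Such shares depend on depth, and sub-cluster 4 had the deepest cells.

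Promoter sequences are shown for these 3 genes because their levels were alike across groups of cells. They come from RefSeq on the build GRCr8, which listed 33469 rat promoters and 7 of the 9 genes (not Myb and Hlf). The 250 bases before each start were searched on both strands for the GATA motifs AGATAA (with its variant AGATAG) and TGATAA (with its variant TGATAG) and for the Klf-type motif CCNCNCCC, counting overlapping matches separately. Of all promoters, 27.0% held at least 1 of the 4 GATA motifs and 42.8% held CCNCNCCC. Capitals mark the matches, and a match describes letters and not a bound site.
Gata1 (GRCr8 chrX:17201487-17201581, plus strand, 150 to 56 bases before the start, 3 matches to CCNCNCCC): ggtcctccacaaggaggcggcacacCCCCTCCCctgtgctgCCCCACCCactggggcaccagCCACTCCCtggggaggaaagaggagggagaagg
Gfi1b (GRCr8 chr3:32351027-32351082, minus strand, 181 to 126 bases before the start, 1 match to TGATAA): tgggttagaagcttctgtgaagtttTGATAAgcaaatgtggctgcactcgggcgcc
Klf1 (GRCr8 chr19:40158652-40158702, minus strand, 51 to 1 bases before the start, 1 match to TGATAA read on the opposite strand): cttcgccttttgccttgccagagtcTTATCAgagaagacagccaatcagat
Over the whole 250 bases, Gata1 had none of the GATA motifs, Gfi1b had 1 match to CCNCNCCC outside the bases shown, and Klf1 had no match to CCNCNCCC. TGATAA was found in 7.97% of all promoters. In the other 4 promoters no GATA motif was found, and CCNCNCCC was matched 4 times for Gata2, 3 times for Kit, 4 times for Cd34 and 0 times for Meis1.

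Gata2, which is needed for mast cells as well as stem cells, was highest in the mast-cell/basophil-like class at 409.6 ± 154 CPM (SD, n = 8). By library the Gata2 level was 210.5 CPM in TO 2d 0h, 484 in TO 2d 4h, 505 in TO 4d 4h, 252 in TO 4d 24h, 633 in TOE 2d 4h, 287 in TOE 2d 24h, 548 in TOE 4d 4h and 358 in TOE 4d 24h. All 4 libraries taken at 4 h lay above all 4 libraries taken at 0 or 24 h. A Gata2 UMI was found in 58.0% of these cells (median 3608.5 UMIs, 40.3% thinned) and in 0.498% of neutrophil-like cells (0.161% thinned). The dendritic-cell-like (64.1 CPM), endothelial-like (59.9 CPM) and erythroid-like (46.0 CPM) classes followed with overlapping ranges, and the mesenchymal-like class stood at 1.88 CPM.

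By sub-cluster, Gata2 was at 469 ± 141 CPM (SD, n = 8) in sub-cluster 1, at 302 ± 127 CPM (n = 6) in the megakaryocyte-like sub-cluster, at 85.1 ± 34.6 CPM (n = 8) in sub-cluster 4 and at 42.8 ± 14.1 CPM (n = 8) in the stem and progenitor-like sub-cluster. Sub-cluster 16, with 89 cells in all, had a pooled level of 465 CPM (interval 411 to 524). In sub-clusters with raised erythroid markers the pooled Gata2 level was 78.0 CPM in sub-cluster 4, 24.3 in sub-cluster 5, 11.98 in sub-cluster 7, 8.46 in sub-cluster 10 and 3.31 in sub-cluster 12. Gata1 was at 117, 174, 142, 91.7 and 47.7 CPM in the same order. Also with raised erythroid markers were the shallow sub-cluster 0 (erythroid-like, median 1187.5 UMIs), at 22.5 CPM of Gata2 and 74.7 CPM of Gata1, and the unnamed sub-cluster 6, in which B-cell markers were raised too, at 39.5 CPM of Gata2 and 89.8 CPM of Gata1. Among these 7 sub-clusters Gata2 was thus highest in sub-cluster 4 and Gata1 in sub-cluster 5, and no course of maturation was derived.

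The 4 h libraries were compared with the other 4 after the Gata2 values had been seen, in the sub-clusters with at least 20 cells in every library and over genes with at least 100 UMIs there. In sub-cluster 1, all 4 of the 4 h libraries were above all the others for 1 of 2 of the 9 genes with enough UMIs (Gata2, 501 to 662 against 297 to 424 CPM), beside 14.2% of 5680 genes, and below for 0, beside 5.05%. In sub-cluster 4 they were above for 2 of 6, Gata2 (109 to 124 against 39.5 to 64.0 CPM) and, by a narrow margin, Gata1 (116 to 144 against 107 to 115 CPM), beside 13% of 10073 genes, and below for 0, beside 7.8%. In the stem and progenitor-like sub-cluster 0 of 6 were above, beside 10.5% of 9710 genes, and 0 below, beside 5.83%. The other 3 sub-clusters gave 0 of 4 above (5.5% of 1491 genes) and 0 below (2.75%) in sub-cluster 0, 0 of 1 above (27.3% of 7766 genes) and 0 below (5.01%) in sub-cluster 2, and 0 of 2 above (10.8% of 8735 genes) and 0 below (6.37%) in sub-cluster 11. The Gata2 pattern was thus shared by many genes of the same cells, was present on both days, and no test of hour was run. Depth was split the same way in sub-cluster 1, with medians of 1859.5 to 3547 UMIs per cell at 4 h and 5844 to 9670 otherwise. In sub-cluster 4 the medians overlapped, at 34391 to 49538 and 39378 to 57858 UMIs. The part of depth in the pattern was not tested.

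Kit was spread over several classes with no class set apart. Its mean was 45.9 ± 35.4 CPM in the mast-cell/basophil-like class, 39.0 ± 22.8 in the dendritic-cell-like class, 33.0 ± 28.4 in the erythroid-like class, 30.0 ± 19.4 in the endothelial-like class (n = 7) and 24.4 ± 9.92 in the T/NK-cell-like class (SD, n = 8 otherwise), and neighbours in this order overlapped. The neutrophil-like mean was 0.519 CPM. A Kit UMI was found in 11.6% of mast-cell/basophil-like cells (5.52% thinned) and in 0.362% of neutrophil-like cells (0.0874% thinned). Within the mast cell and basophil-like cells, sub-cluster 16 had a pooled 298 CPM (interval 256 to 346) and Kit UMIs in 71.9% of its 89 cells, whereas sub-cluster 1, the basophil-type group with Prss34 and Mcpt8, had 6.29 CPM.

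Outside the mast cells, Kit was at 73.4 ± 67.7 CPM (SD, n = 6) in the megakaryocyte-like sub-cluster, at 57.5 ± 29.4 CPM (n = 8) in sub-cluster 4 and at 50.9 ± 33.2 CPM (n = 8) in the stem and progenitor-like sub-cluster. TOE 4d 24h was the highest library in each of the 3, and without it the means were 46.7, 50.7 and 39.8 CPM, so the first place of the megakaryocyte-like sub-cluster rested on that library. The erythroid sub-clusters 5, 7, 10 and 12 had pooled Kit levels of 0.467, 1.498, 0.157 and 0.473 CPM, sub-cluster 0 had 3.93 CPM (7 UMIs) and sub-cluster 6 had 18.5 CPM. In sub-cluster 5, where Klf1 was highest, Gata2 and Kit were thus below their levels in sub-cluster 4.

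Meis1, Hlf and Cd34 had their main progenitor levels in the stem and progenitor-like sub-cluster and, for Meis1 and Hlf, in the megakaryocyte-like sub-cluster. Meis1 stood in sub-cluster 8 at 247 ± 49.2 CPM (SD, n = 8), with 207 CPM in TO 2d 0h, 324 in TO 2d 4h, 228 in TO 4d 4h, 214 in TO 4d 24h, 177 in TOE 2d 4h, 289 in TOE 2d 24h, 254 in TOE 4d 4h and 281 in TOE 4d 24h. The megakaryocyte-like sub-cluster was higher in each of the 6 libraries with enough cells, at 483 ± 224 CPM with a range of 286 to 922. The next sub-cluster with several libraries, the unnamed sub-cluster 13, had 14.5 CPM (n = 3). Together sub-clusters 8 and 3 held 36.2% and 25.7% of all Meis1 UMIs. Because most of these cells were grouped with the dendritic cells at first, Meis1 appeared highest in that class, at 161 ± 39.7 CPM, whereas the dendritic-cell-like sub-cluster itself had a pooled 8.01 CPM.

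Stromal cells also carried Meis1. The mesenchymal-like class (1287 cells) had 35.4 ± 16.7 CPM (SD, n = 8), from 14.9 CPM in TO 4d 24h to 59.8 CPM in TO 4d 4h, and 43.4% of its cells had a UMI at a median of 31861 UMIs per cell (5.76% thinned), against 0.537% of neutrophil-like cells (0.108% thinned). This class held 15.4% of all Meis1 UMIs, from 3.11% to 45.6% by library. The highest of these shares went with TOE 2d 24h, in which 498 of the 1287 mesenchymal-like cells were found.

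Hlf was sparse, with 619 UMIs in 406 cells. In the stem and progenitor-like sub-cluster it stood at 11.2 ± 6.05 CPM (SD, n = 8), from 2.61 CPM (4 UMIs, TOE 2d 24h) to 19.1 CPM (26 UMIs, TOE 4d 24h), and 15.0% of its cells had a UMI (1.93% thinned) against 0.0971% of neutrophil-like cells (0.00672% thinned). Among the classes the T/NK-cell-like class led, at 12.5 ± 10.6 CPM (SD, n = 8). Its highest values were 28.2 CPM in TO 4d 4h and 29.1 CPM in TOE 4d 4h, and TOE 4d 24h had 0 UMIs in 29 cells, which allows up to 10.0 CPM. The ranges of the leading classes overlapped, so no order among them can be read from these counts.

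Cd34 had its main level in vessel cells. The endothelial-like class (373 cells) stood at 310 ± 96.7 CPM (SD, n = 7), from 189 CPM in TOE 2d 4h to 476 CPM in TO 4d 4h, without overlap with any other class. A Cd34 UMI was found in 77.7% of endothelial-like cells (33.9% thinned) and in 0.207% of neutrophil-like cells (0.0605% thinned). Among blood progenitors, the stem and progenitor-like sub-cluster had 86.9 ± 19.9 CPM (SD, n = 8), from 66.7 CPM in TO 2d 0h to 127 CPM in TOE 4d 24h. It lay above the unnamed sub-cluster 15 (18.9 CPM, n = 7), which had Fcnb and Lyz2 among its leading genes, in all 7 libraries compared. Endothelial-like cells held 48.4% of all Cd34 UMIs and sub-cluster 8 held 27.7%, so Cd34 alone did not mark blood progenitors in this tissue.

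Myb was found in 67314 cells (60.9%), far more than any other of the 9 genes. The B-cell-like class, 57976 cells, led at 841 ± 119 CPM (SD, n = 8), from 648 CPM in TOE 4d 24h to 1018 CPM in TOE 2d 24h, and held 81.6% of all Myb UMIs. The mast-cell/basophil-like (326 CPM), plasma-cell-like (302 CPM), granulocyte-monocyte progenitor-like (291 CPM) and T/NK-cell-like (269 CPM) classes followed with overlapping ranges. The neutrophil-like class had 86.5 ± 18.7 CPM of Myb and UMIs in 26.4% of cells (7.91% thinned). The B-cell-like share was 82.5% (61.5% thinned). For Myb the neutrophil-like value cannot be read as background alone, since the class held a defensin-rich cluster that was not split off. Among the sub-clusters, the unnamed sub-cluster 17 (65 cells, with the eosinophil genes Prg3 and Epx) had a pooled 927 CPM (interval 851 to 1007), and the stem and progenitor-like sub-cluster had 309 ± 56.9 CPM (SD, n = 8). Of the sub-clusters with raised erythroid markers, the pooled Myb level was 342 CPM in sub-cluster 6 and 279 CPM in sub-cluster 4, against 81.5 CPM in sub-cluster 0 and 27.6, 38.2, 24.8 and 29.3 CPM in sub-clusters 5, 7, 10 and 12.

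**Figure D3:**
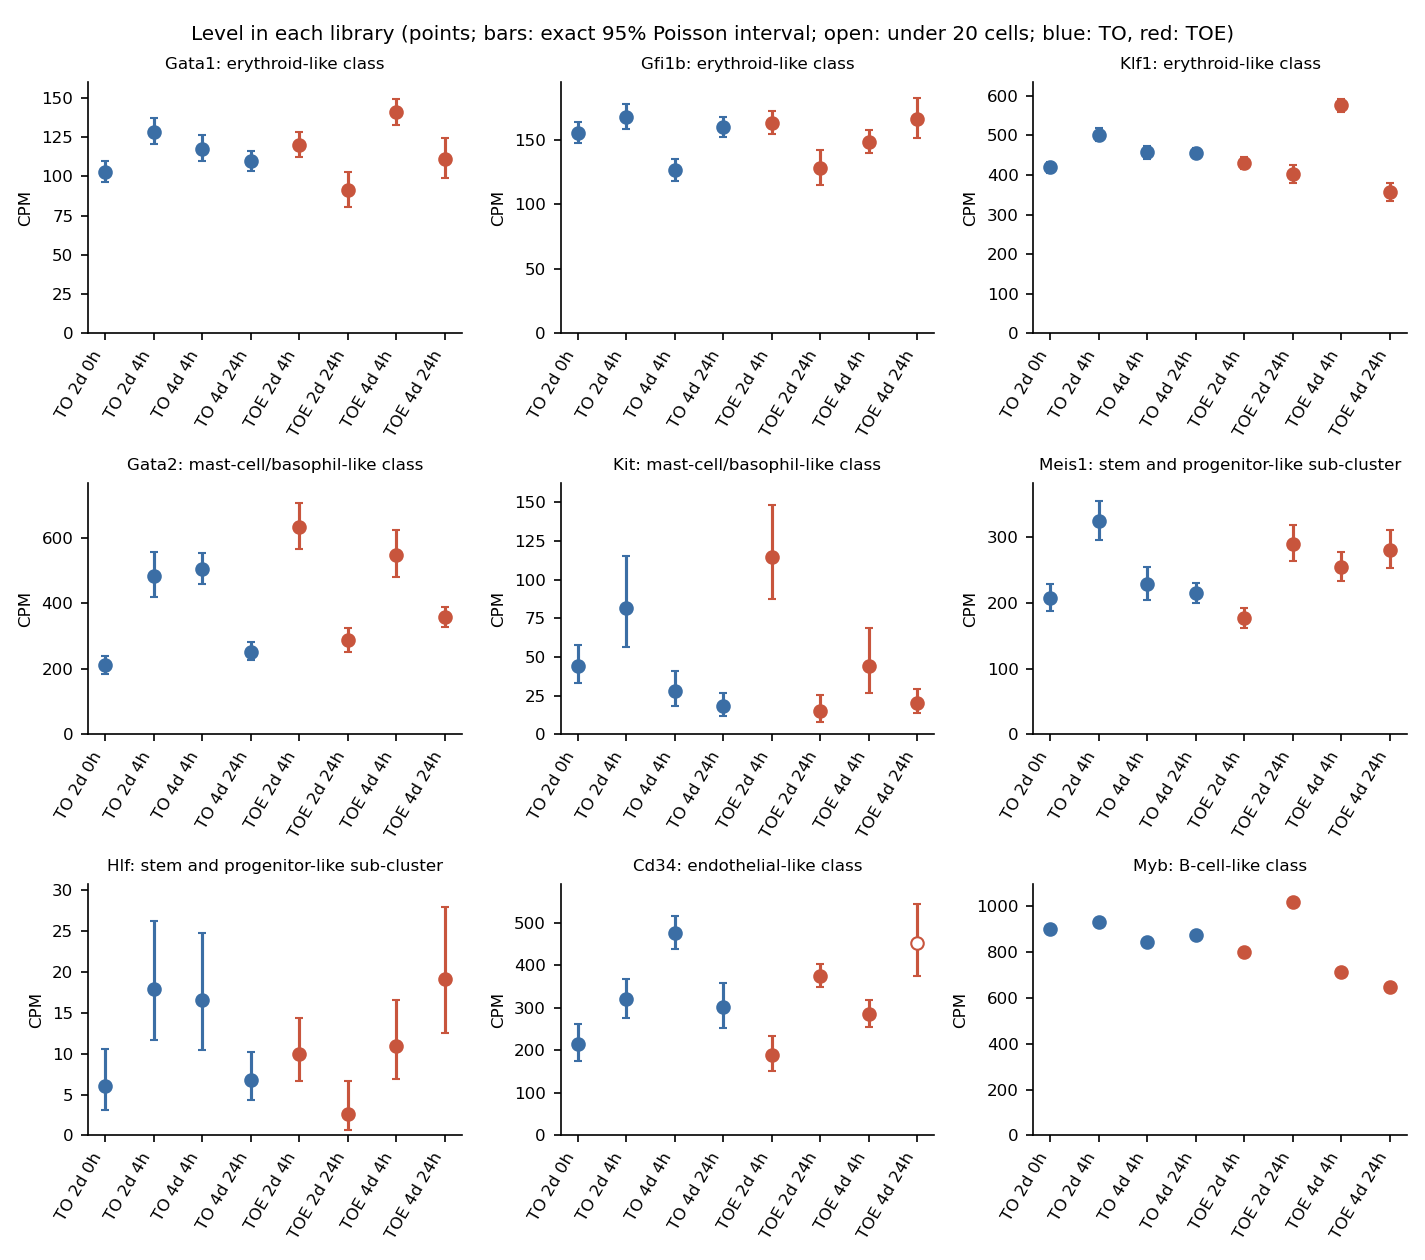
CPM of each gene in each of the 8 libraries (blue for TO, red for TOE), in the class or sub-cluster named above the panel, with exact Poisson intervals as bars and an open point for fewer than 20 cells. Gata2 is higher at 4 h (484 to 633 CPM) than at 0 or 24 h (210.5 to 358 CPM), while Gata1 shows TO and TOE libraries interleaved.

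Across the 46 groups of cells left after the 18 sub-clusters took the place of the clusters they came from, patterns were compared as Pearson correlations of log2(CPM + 1) over 16373 genes, a description of groups that share libraries. Gata1 and Gfi1b were most like each other (r = 0.973), followed by the erythroid adhesion gene Icam4 (0.943 and 0.941). LOC102554502 was the third for Gata1 (0.939) and Ybx2 for Gfi1b (0.936). Klf1 was most like Tspo2 (0.982), Car2 (0.974) and Kel (0.972), all genes of red cell precursors. Meis1 was most like Hoxa9 (0.835), Fam184a (0.809) and Hlf (0.798), and Hlf was most like Ctsw (0.855), Itm2a (0.815) and Meis1. Gata2 was most like Tpd52l1 (0.832), Plekha7 (0.826) and LOC685680 (0.798), Kit most like LOC102555978 (0.782), Dctd (0.774) and Tgfbr3 (0.762), Cd34 most like Hoxa7 (0.835), Zfp945 (0.801) and Shank3 (0.762), and Myb most like LOC120102404 (0.885), LOC120093629 (0.861) and Mtf2 (0.859). In single cells, 84.2% of cells with a Kit UMI also had Myb, 42.6% of cells with Hlf had Meis1, and of the cells with Cd34 39.5% had Meis1, 34.3% had Kit and 30.7% had Gata2.

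Whether shock waves went with other levels of the 9 genes was addressed in the 3 pairs. Over all cells, the ratios farthest from 1 belonged to the erythroid factors at 4d 24h. Gata1 was at 11.8 CPM in TO 4d 24h and 4.24 CPM in TOE 4d 24h, a TOE over TO ratio of 0.360 (interval 0.321 to 0.403). In a value over all cells, fewer cells of a type and less RNA per cell cannot be told apart. Gfi1b had 17.01 and 6.13 CPM, a ratio of 0.360 (0.327 to 0.396), and Klf1 had 46.3 and 12.7 CPM, a ratio of 0.275 (0.257 to 0.293). In the 2d 4h pair the ratios of the 3 genes were 0.807, 0.832 and 0.724, and at 4d 4h they were 1.13, 1.10 and 1.25, with intervals that did not include 1. The direction therefore differed between the pairs. Among the 8 libraries the 2 lowest levels of Gata1 over all cells were 2.60 CPM in TOE 2d 24h, which had no TO library to set beside it, and 4.24 CPM in TOE 4d 24h. The other 6 lay between 8.22 and 11.8 CPM.

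Within the erythroid-like class, the 4d 24h ratios were 1.01 (0.888 to 1.15) for Gata1, 1.04 (0.936 to 1.16) for Gfi1b and 0.784 (0.730 to 0.840) for Klf1. In the 4d 4h pair they were 1.20 (1.09 to 1.31), 1.18 (1.07 to 1.29) and 1.26 (1.20 to 1.32), all above 1. The 2d 4h pair gave 0.936 (0.854 to 1.03), 0.973 (0.899 to 1.05) and 0.856 (0.817 to 0.898), of which Klf1 alone had an interval without 1. The cells of the class were also counted. Erythroid-like cells numbered 812 in TO 4d 24h (5.92% of cells, 5.53 to 6.32) and 75 in TOE 4d 24h (0.629%, 0.495 to 0.788). In the other libraries they numbered 395 to 679 (2.80% to 4.60%). Of the 75 cells, 57 were in sub-cluster 4, 15 in sub-cluster 0 and 3 in sub-cluster 6, and none were in sub-clusters 5, 7, 10 or 12, which held 12, 305, 20 and 171 of the 812 in TO 4d 24h. The median depth of the class was 31451 UMIs in TOE 4d 24h and 4895 UMIs in TO 4d 24h. Klf1 in neutrophil-like cells was at 1.00 CPM in both TOE 4d 24h and TOE 2d 24h. The other libraries had 2.15 to 5.10 CPM. TOE 2d 24h, however, held 395 erythroid-like cells at a median of 4935 UMIs. Other classes also differed in share between TO 4d 24h and TOE 4d 24h. Plasma-cell-like cells were 9.90% and 0.629% of cells, macrophage-like cells 1.64% and 0.310%, and T/NK-cell-like cells 1.42% and 0.243%. Neutrophil-like cells went the other way, at 16.6% and 26.9%, as did B-cell-like cells, at 44.3% and 58.2%. The part of cell make-up, depth or the Klf1 level of neutrophil-like cells in the ratios was not tested.

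**Figure D4:**
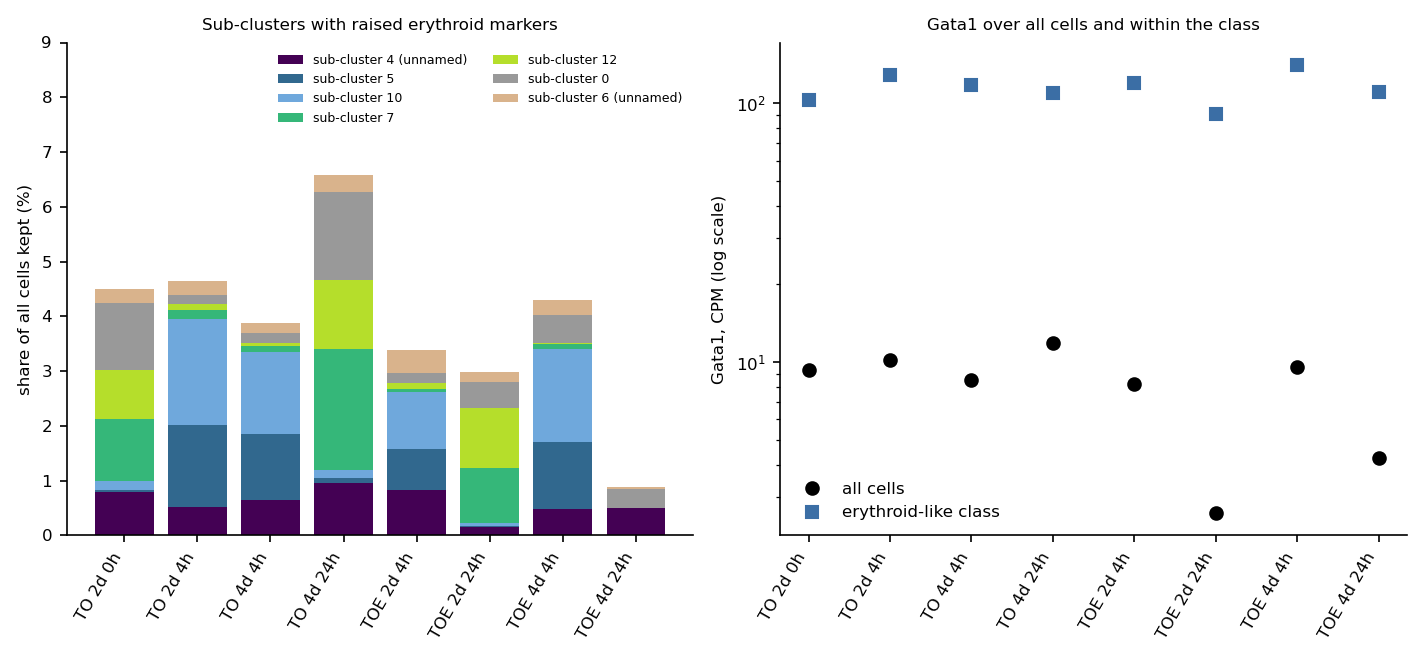
Left, share of all cells kept (%) in the sub-clusters with raised erythroid markers, stacked by sub-cluster for each library. Right, Gata1 CPM (log scale) over all cells (circles) and within the erythroid-like class (squares). In TOE 4d 24h sub-clusters 5, 7, 10 and 12 are missing and Gata1 over all cells is at 4.24 CPM, while its level within the class is 111 CPM.

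The erythroid sub-clusters were also spread unevenly over the hours. Sub-cluster 5 counted 122 to 221 cells in the 4 libraries taken at 4 h and 0 to 12 in the others, and sub-cluster 10 counted 168 to 286 against 0 to 23. Sub-clusters 7 and 12 came mostly from TO 2d 0h, TO 4d 24h and TOE 2d 24h, with 141 to 305 and 126 to 171 cells. Sub-cluster 4 was present in all 8 libraries, with 22 to 134 cells. A level of Gata1, Gfi1b or Klf1 in the class therefore came from different sub-clusters in different libraries. The split of sub-clusters 5 and 10 by hour was present on both days and was not tested.

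At a 2-fold difference over all cells, 0 of the 9 genes were higher in TOE at 2d 4h, where 5.56% of 20493 genes with at least 20 UMIs over the pair were, and 0 were lower, where 6.16% of genes were. At 4d 4h again 0 were higher (2.36% of 20854 genes) and 0 lower (3.82%). At 4d 24h, 0 were higher (17.7% of 20421 genes) and 3 were lower (Gata1, Gfi1b and Klf1, 7.36% of genes). Kit, at a ratio of 1.99 in this pair, fell just short of 2-fold higher. The median log2 ratio of the 9 genes was -0.16, -0.26 and -0.16 in the 3 pairs, beside 0.08, -0.08 and 0.14 over all genes.

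Gata2 over all cells had ratios of 1.03, 0.696 (0.643 to 0.753) and 1.14 (1.05 to 1.25) at 2d 4h, 4d 4h and 4d 24h. In the mast-cell/basophil-like class its ratios were 1.31 (1.09 to 1.57), 1.09 (0.925 to 1.27) and 1.42 (1.24 to 1.63). The class was mixed, since 616 of its 982 cells were in sub-cluster 1 and 87 in sub-cluster 16, but 151 were in the erythroid-like sub-cluster 0, 65 in sub-cluster 17 and 22 in the megakaryocyte-like sub-cluster. Within sub-cluster 1 alone the Gata2 ratios were 1.08 (0.872 to 1.33), 1.15 (0.943 to 1.40) and 1.43 (1.23 to 1.66), so the interval at 2d 4h included 1 there. Myb in the B-cell-like class was lower in TOE in each pair, with ratios of 0.862, 0.844 and 0.742, and intervals of 0.851 to 0.873, 0.831 to 0.857 and 0.731 to 0.753. These intervals are narrow because Myb had 28619 to 54465 UMIs per library there, and they do not hold the spread between animals. Over all cells Myb was at 1.11, 0.684 and 0.858 times the TO level. The B-cell-like class pooled clusters led by Dntt, Ms4a1 or histone genes. They were spread unevenly, and TO 4d 24h gave 1277 of 3253 cells of a histone-led cluster. The part of this in the class ratios was not tested. In the sub-clusters with enough cells and UMIs, the Myb interval lay above 1 in 6 of 11 and below in 1 at 2d 4h. At 4d 4h it lay above in 0 and below in 6 of 11, and at 4d 24h above in 4 of 7 and below in 0. Cd34 in the endothelial-like class was at 0.589 (0.453 to 0.762), 0.601 (0.524 to 0.688) and 1.495 (1.15 to 1.93) times the TO level, the last from 16 cells in TOE 4d 24h. Meis1 over all cells was at 0.712 (0.656 to 0.773), 0.838 (0.774 to 0.907) and 0.894 (0.826 to 0.967) times the TO level. Hlf over all cells had ratios of 1.02, 1.17 and 1.11, and each interval included 1, the widest from 0.758 to 1.61.

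For Kit the 2d 4h pair gave a ratio of 1.33 (1.20 to 1.47) over all cells, the 4d 4h pair 0.604 (0.534 to 0.683) and the 4d 24h pair 1.99 (1.79 to 2.22). In the stem and progenitor-like sub-cluster the Kit level was 33.9 CPM in TO 2d 0h, 43.3 in TO 2d 4h, 56.1 in TO 4d 4h, 24.0 in TO 4d 24h, 45.5 in TOE 2d 4h, 48.2 in TOE 2d 24h, 28.0 in TOE 4d 4h and 129 in TOE 4d 24h. TOE 4d 24h stood apart from the other 7 libraries, with 175 UMIs in 68 cells, and TO 4d 24h was the lowest, with 81 UMIs in 92 cells. The ratio at 4d 24h was 5.37 (4.10 to 7.07), while the 2d 4h pair gave 1.05 (0.773 to 1.44) and the 4d 4h pair 0.499 (0.347 to 0.712). The 4d 24h pair gave Kit ratios of 10.7 (6.62 to 18.1) in the megakaryocyte-like sub-cluster, 3.76 (3.11 to 4.55) in sub-cluster 4, 2.43 (1.40 to 4.26) in the dendritic-cell-like sub-cluster and 2.20 (0.974 to 4.88) in the granulocyte-monocyte progenitor-like sub-cluster. TOE 4d 24h was thus above TO 4d 24h in 5 of 5 sub-clusters with enough cells and UMIs, and the interval excluded 1 in 4 of them. All of these sub-clusters came from the same pair of libraries, so they do not repeat the comparison. Among the classes Kit was highest in the mast-cell/basophil-like class. Kit ratios there were 1.40 (0.900 to 2.22), 1.58 (0.825 to 2.96) and 1.12 (0.638 to 1.99) in the order of the pairs. Each interval included 1. The class was mixed, and its Kit-rich sub-cluster 16 was small. In the same order it counted 11 TO against 15 TOE cells, then 8 against 8, and lastly 12 against 1. The 4d 24h ratio of the class thus compared different mixes of cells. A change of Kit within sub-cluster 16 was not tested. The 4d 4h pair had 3 of 6 sub-clusters with an interval below 1 and 0 above, and the 2d 4h pair had 2 of 7 above and 0 below.

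The other genes of the stem and progenitor-like sub-cluster differed in the same pair. Hlf had a ratio of 2.81 (1.54 to 5.15) from 23 and 26 UMIs, Cd34 1.81 (1.48 to 2.20), Gata2 1.66 (1.20 to 2.27), Myb 1.44 (1.30 to 1.61) and Meis1 1.31 (1.15 to 1.49). The pairs at 4 h did not repeat this. At 2d 4h Meis1 was at 0.545 (0.480 to 0.619) and Hlf at 0.559 (0.318 to 0.989) of the TO level, with Cd34 at 1.00 (0.807 to 1.25), and at 4d 4h Gata2 was at 0.477 (0.347 to 0.653). The sub-cluster itself was 0.432% to 0.727% of cells, and it held 92 cells of TO 4d 24h but 68 of TOE 4d 24h. Its median depth was 33580 UMIs per cell in TO 4d 24h, the highest of the 8 libraries, and 17570.5 UMIs in TOE 4d 24h, and the part of this in the ratios was not tested.

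Within this sub-cluster, 0 of 6 genes with at least 20 UMIs over the pair were 2-fold higher in TOE at 2d 4h (6.41% of 10368 genes) and 0 were 2-fold lower (2.95%). At 4d 4h, 0 of 6 were higher (2.89% of 9888 genes) and 1 was lower (Gata2, 1.73% of genes), while Kit, at a ratio of 0.499, fell just short of 2-fold once 0.5 UMIs were added to each side. At 4d 24h, 3 of 7 were higher (Kit, Hlf and Klf1, 12.1% of 10474 genes) and 0 lower (5.52%), but Klf1 rested on 11 and 10 UMIs and its interval was 0.860 to 5.86. The genes tested were those with enough UMIs, and Gata1 and Gfi1b were never among them. Their median log2 ratio, for the genes tested, was -0.14, -0.43 and 0.85 in the order of the pairs. Over all genes of the sub-cluster it was 0.09, 0.04 and 0.002.

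**Figure D5:**
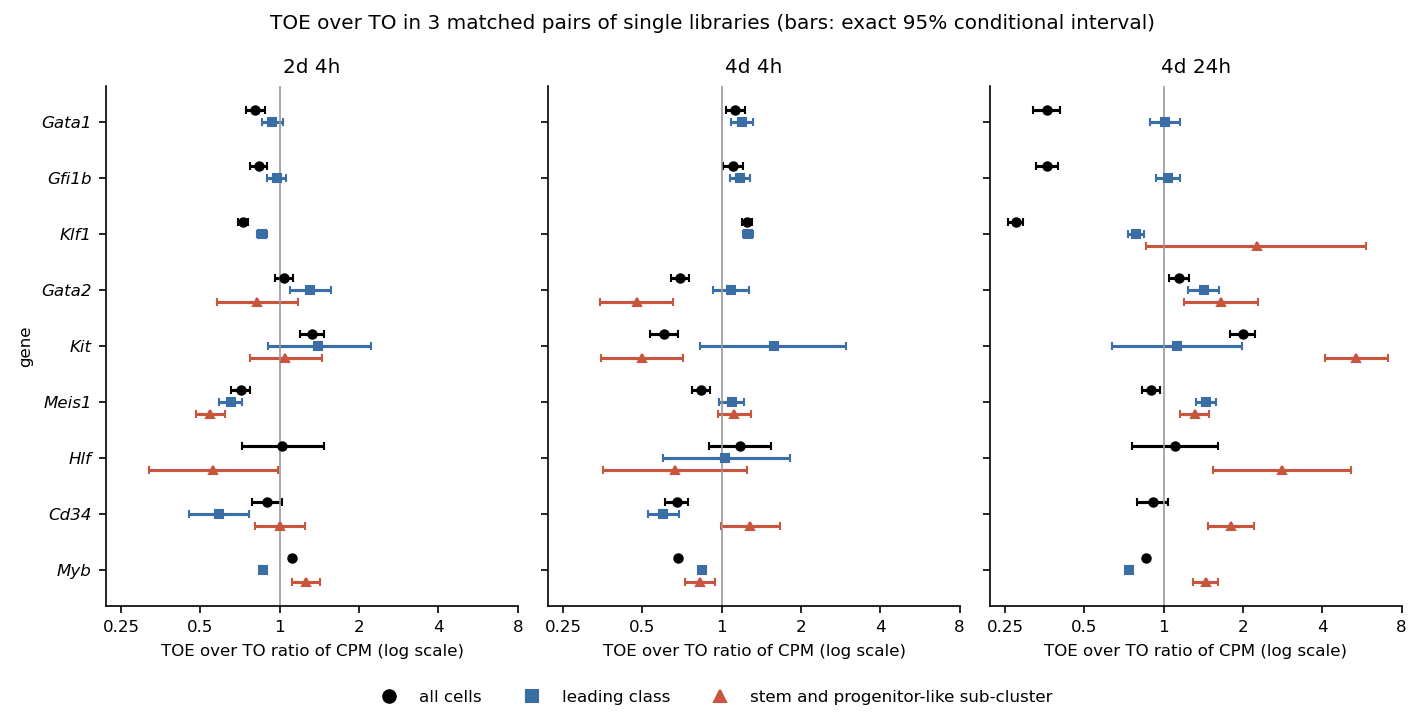
TOE over TO ratio of CPM (log scale) for each gene in the 3 pairs, over all cells (circles), in the class where the gene was highest (squares) and in the stem and progenitor-like sub-cluster (triangles), with exact conditional intervals as bars. At 4d 24h Gata1, Gfi1b and Klf1 are at 0.360, 0.360 and 0.275 over all cells, and Kit is at 5.37 in the sub-cluster.

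Lists of related genes gave the surroundings of these differences over all cells. Counts past 2-fold are to be read against the shares of all genes, which in the order of the pairs were 5.56%, 2.36% and 17.7% higher and 6.16%, 3.82% and 7.36% lower. Of 22 partner and opposing transcription factors, 1 was 2-fold higher (Cbfa2t3) and 1 lower (Mecom) at 2d 4h. None passed 2-fold at 4d 4h. In the 4d 24h pair 5 of the 22 were higher, Erg, Ikzf1, Cbfa2t3 and Bcl11a among them, near the 17.7% of all genes, and 3 were lower (Zfpm1, Mycn and Sox4). Zfpm1, the cofactor of Gata1, was highest in sub-cluster 5 (561 CPM), as was Tal1 (458 CPM). Runx1 had the most UMIs of this list and ranged from 454 CPM in TOE 2d 24h to 648 CPM in TO 2d 4h. Of 10 cytokine receptors and ligands with enough UMIs, 2, 1 and 3 were 2-fold lower in the 3 pairs and 0 were higher. At 4d 24h these were the erythropoietin receptor Epor, the Kit ligand gene Kitlg and the stem cell retention factor Cxcl12. Kitlg and Cxcl12 were the lower genes at 2d 4h, and Cxcl12 was the lower gene in the 4d 4h pair. Angpt1 had the most UMIs of this list and ranged from 48.4 to 81.4 CPM.

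Erythroid genes downstream of Gata1 and Klf1 are globins, haem enzymes and red cell membrane proteins. Of 14 such genes, 9 were 2-fold lower in TOE at 2d 4h, beside 6.16% of all genes, and 0 in the 4d 4h pair. Among the 9 were the globins Hba-a1, Hba-a2, Hbb and Hbb-bs, the haem enzyme Alas2, the membrane proteins Slc4a1 and Epb42, and Hemgn. The 4d 24h pair had 13 lower, beside 7.36% of all genes, which included these 9 and also Ahsp, Tfrc and Rhag, and the median log2 ratio of the 14 genes was -3.05 beside 0.14 over all genes. None was 2-fold higher in any pair. The 2d 4h count included the unnamed cluster dominated by TO 2d 4h and was not recomputed without it. Hba-a1, a haemoglobin gene, was at 42.8 CPM over all cells in TOE 4d 24h and at 3074 to 9838 CPM in the other 7 libraries. Of 8 mast cell and basophil genes, Cpa3 was higher and Tpsab1 lower at 2d 4h. In the 4d 4h pair Tpsab1 was higher and 4 were lower (Ms4a2, Prss34, Mcpt8 and Il1rl1), beside 3.82% of all genes. In the 4d 24h pair Fcer1a was higher and Cpa3 and Tpsab1 were lower, and 1 of 8 higher was below the share of all genes. Mcpt8, the basophil protease with the most UMIs of the list, was at 492 CPM in TO 4d 24h and 951 CPM in TOE 4d 24h, with 104 to 295 CPM in the other 6 libraries.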

How the data were processed

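Single-cell suspensions of 8 libraries had been processed by the submitters with Cell Ranger 9.0.0, and the deposited matrices held UMI counts per gene and barcode, not normalized. The submitters' notes name mRatBN7.2 and GRCh38 without a role, and which build was used for counting is not given in the sources used here. Libraries were grouped by the labels. Barcodes with under 200 genes or over 20% of UMIs from mitochondrial genes were dropped, and doublets were removed with Scrublet at an expected rate of 8% and a score of 0.25, since the automatic threshold marked 0 or 1 barcodes in 4 libraries. Of 116711 barcodes 114232 passed the filter, 3744 of them were removed as doublets and 110488 were kept. At most 110 barcodes were shared by a pair of libraries (0.783% of the smaller). After scaling each cell to 10000 UMIs, 2000 variable genes without the 9 described genes, 30 principal components (values clipped at 10), 15 neighbours and a Leiden resolution of 1 gave the clusters (scanpy 1.11.5, igraph 0.11.9, scikit-learn 1.9.0, python 3.11.15, numpy 2.4.6, pandas 2.3.3, scipy 1.17.1, matplotlib 3.10.9).

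Clusters were named from marker lists, by a rule settled after the clusters had been seen. The 9 genes and all lists were chosen with earlier results of these data known. CPM were computed from summed UMIs with exact Poisson intervals, shares with Clopper-Pearson intervals and TOE over TO ratios with exact conditional intervals, all at 95%, and a level averaged libraries with at least 20 cells. A UMI count of 0 was given a limit of 3 UMIs. With 1 library per condition no test was run within a pair, and none was run over the pairs or over the hours. For counts past 2-fold, genes needed 20 UMIs or more in a pair's libraries, with 0.5 UMIs added to each side, and the interval code was tested on simulated data. Shares were repeated after thinning to 1500 UMIs per cell. Likeness used genes with at least 500 UMIs. All 9 genes are named, with the 3 genes most like each and the gene with the most UMIs per list of related genes, and the lists are given as counts past 2-fold. The genes of these lists past 2-fold, and Tal1, were named after their values had been seen, and some of them are not reported here. The alternatives were a stricter cell filter, doublets kept, no cell filter, other resolutions, component numbers and seeds, the 9 genes kept among the variable genes, summed UMIs in place of library means, leaving out TO 2d 4h or TOE 2d 24h, the median ratio of all genes set to 0, UMIs per cell in place of CPM, another added count, a higher UMI minimum, thinning and, chosen after seeing the data, leaving out the cluster dominated by TO 2d 4h and leaving out each library of a mean level in turn.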

Additional observations from a re-analysis of the deposited data

Results flagged for a closer look

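The TOE over TO ratio of several genes lay above 1 in 1 pair and below 1 in another, with both intervals excluding 1. With 1 library per condition the difference between pairs was not tested.

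Over all cells, Gata1 was at 1.13 times the TO level in the 4d 4h pair and 0.360 times in the 4d 24h pair, Gfi1b 1.10 and 0.360, and Klf1 1.25 and 0.275. Klf1 within the erythroid-like class had 1.26 and 0.784 in the same pairs. Gata2 over all cells had 1.14 in the 4d 24h pair and 0.696 in the 4d 4h pair, and Kit had 1.99 and 0.604 in the same pairs. In UMIs per cell the Gata2 difference at 4d 24h was 0.031 on the log2 scale, so its upper value depended on the unit. Myb over all cells had 1.11 in the 2d 4h pair and 0.684 in the 4d 4h pair.

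In the stem and progenitor-like sub-cluster the upper ratio was at 4d 24h in each case. Kit had 5.37 there and 0.499 in the 4d 4h pair, Gata2 had 1.66 and 0.477, and Myb had 1.44 and 0.829. Hlf had 2.81 there and 0.559 in the 2d 4h pair, and Meis1 had 1.31 and 0.545. In the mixed dendritic-cell-like class Meis1 had 1.45 in the 4d 24h pair and 0.653 in the 2d 4h pair. The make-up of this class differed within the 4d 24h pair. Sub-cluster 14, at a mean of 10.7 CPM of Meis1, fell from 85 TO to 2 TOE cells. The dendritic-cell-like sub-cluster counted 70 TO against 34 TOE cells. Sub-cluster 13, also low in Meis1, went the other way, with 7 against 40. The part of make-up in the class ratios was not tested.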

How the results depend on the processing

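The labels give no replicate numbers, and a fit over the 3 pairs with the time point as a block was not run. Of 99 recomputed levels 98 moved by less than their spread. Meis1 in the dendritic-cell-like class was at 10.9 CPM at the higher resolution, where Meis1 and Kit were highest in a megakaryocyte-like class (328 and 51.6 CPM). Of 162 recomputed ratios 147 stayed within their interval, and the other 15 moved with UMIs per cell in place of CPM. On the log2 scale and in the order of the pairs these were -0.15 (2d 4h) for Gata1, -0.11 (2d 4h) and -1.63 (4d 24h) for Gfi1b, 0.21 and 0.031 for Gata2 in the same pairs, -0.31, 0.40 and -2.03 for Klf1, 0.31, -0.47 and -0.38 for Myb, -0.33 and -0.32 (2d 4h and 4d 24h) for Meis1, and 0.56 and 0.83 for Kit. UMIs per cell keep the depth of each library, which CPM divide out. Of the mean levels given for Kit in its progenitor sub-clusters, that of the megakaryocyte-like one moved by over 1.5 times, to 46.7 CPM, when TOE 4d 24h was left out. Without the cluster dominated by TO 2d 4h all 27 ratios over all cells stayed within their interval. The 18 recomputed counts of genes past 2-fold were all within 1.5 times. Thinned to 1500 UMIs per cell, the share of cells with a UMI in the leading class was 13.5% for Gata1, 15.9% for Gfi1b, 40.3% for Gata2, 46.1% for Klf1, 61.5% for Myb, 14.03% for Meis1, 1.90% for Hlf, 5.52% for Kit and 33.9% for Cd34, lower because fewer UMIs are read. Of the 9 genes Hlf had the fewest UMIs, 619 in all.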
